A study of Mus musculus with 40 samples.

Results

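The comparison set cerebella of INDY mice on a ketogenic diet (INDY KD) against cerebella of wild-type mice on the same diet (WT KD). Its members were chosen by genotype and diet label and were 10 of the 40 libraries of the series, 6 INDY KD (numbers 15, 20, 21, 22, 45 and 46) and 4 WT KD (numbers 7, 12, 25 and 28). The series also holds INDY and wild-type mice on a standard diet (SD), and mice labelled CSB or DKO on both diets. Their values are given only where named, but all 40 libraries entered the filter on low values and the fit. All mice were male C57BL6 and the tissue was cerebellum. The labels give no age, no allele, and no composition or length of the diet. They do not say whether each library came from a separate animal. The p-values therefore measure spread between libraries, pooled within the 8 groups of all 40 libraries and not taken from the 10 compared libraries alone. Bulk RNA from ribosome-depleted libraries was measured, and the values are estimated read counts per gene that the authors normalised. In such samples fewer cells of a type and less RNA per cell cannot be told apart.

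INDY is the name, taken from a fruit fly gene, of Slc13a5, which carries citrate with sodium from outside the cell into the cytosol. In the cytosol ATP citrate lyase splits citrate into oxaloacetate and acetyl-CoA, the carbon donor for fatty acid and sterol synthesis and for histone acetylation. A ketogenic diet is high in fat and low in carbohydrate, and the liver then makes ketone bodies that the brain takes up through monocarboxylate transporters and oxidises in mitochondria. The comparison asks how the cerebellar transcriptome of mice without this citrate transporter differs from that of wild-type mice while both eat such a diet.

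The WT KD libraries differed among themselves, and this bears on most of what follows. The library labelled WT KD 25 had 1041 normalised estimated counts of the gene model Gm6768, which was at 0 in the other 9 libraries, in WT SD and in INDY SD, and was 941 to 1245 in CSB KD. It also had 2362 of Ncoa4, against 3071 to 4093 in the other 9 libraries and 2350 to 2883 in CSB KD, and 633 of Ercc6, the gene of the CSB protein, against 718 to 1070 in the other 9. Its label was kept, and calls are given with and without it, as are the list counts that moved most. WT KD 7 and WT KD 12 held transcripts of bone marrow: S100a8, a calcium-binding protein of neutrophils, was 625 and 2984 there, against 21.5 to 66.6 in INDY KD and 3.19 and 6.42 in the library labelled WT KD 25 and in WT KD 28. The libraries labelled WT KD 25 and 28 held little RNA of the choroid plexus, the epithelium that secretes cerebrospinal fluid, with Ttr at 80.1 and 77.0, against 1611 to 30475 in INDY KD and 10428 and 14852 in WT KD 7 and 12. Among the INDY KD libraries, number 20 was low in ependymal and brainstem markers, and numbers 15, 20 and 22 were high in liver markers. Forebrain markers were high in INDY KD 21 and 22 and in WT KD 7, 12 and 25. They were lower in INDY KD 15, 20, 45 and 46 and in WT KD 28. Pearson's correlation of log2 values between any 2 of the 10 libraries lay between 0.920 and 0.974. Defining markers of granule and Purkinje neurons were above 0 in every one of the 10 libraries.

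**Figure D1:**
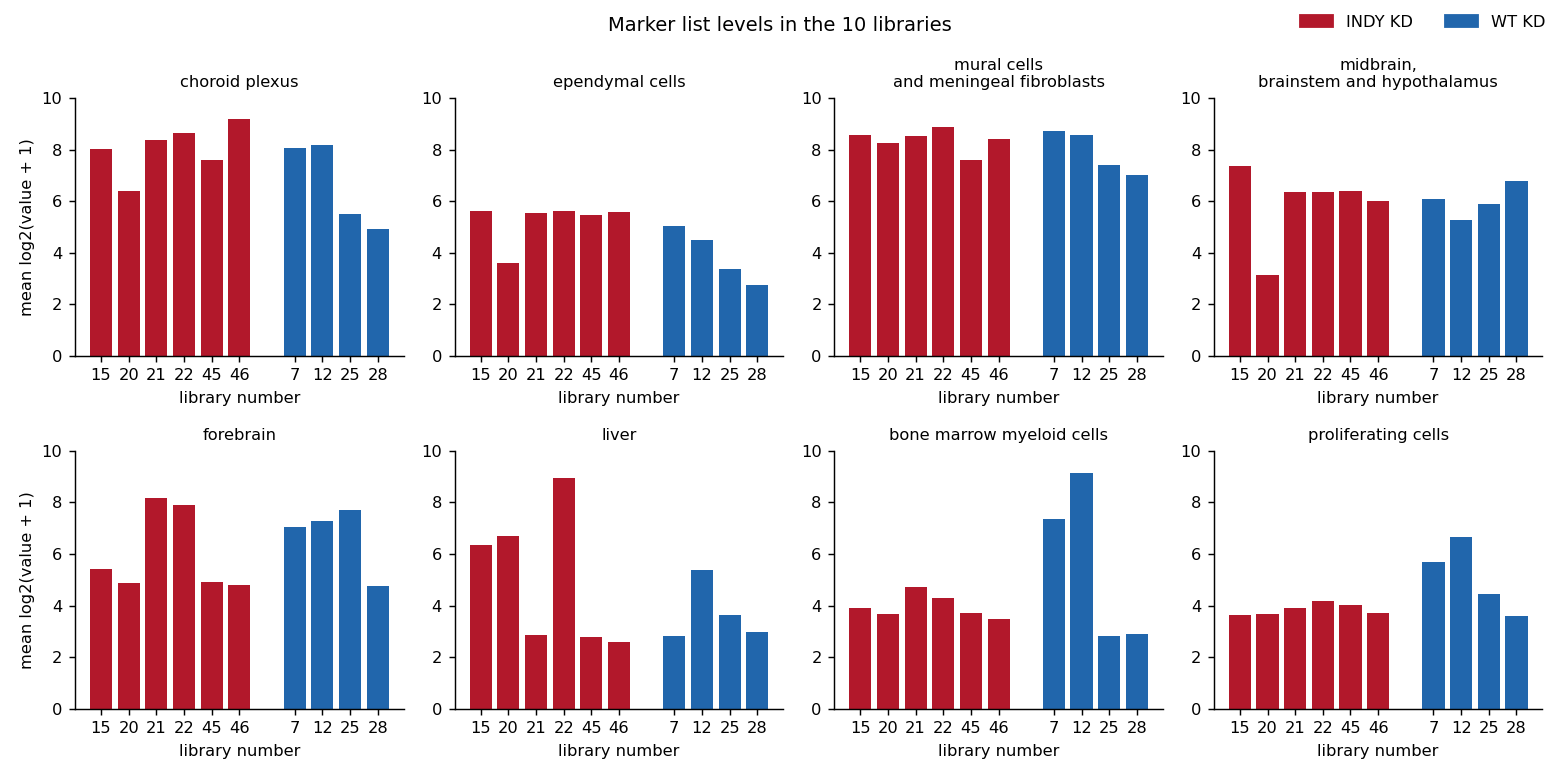
Mean log2(value + 1) over the genes of 8 marker lists in each of the 6 INDY KD and 4 WT KD libraries, 1 bar per library. WT KD 7 and 12 stand out in the marrow list at 7.36 and 9.15, and the libraries labelled WT KD 25 and 28 are the lowest in the choroid plexus list at 5.50 and 4.94.

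Two-sided limma tests on log2(value + 1), adjusted by Benjamini-Hochberg over 21367 genes, called 2 genes at an adjusted p under 0.05, 0.00936% of those tested. Slc13a5 fell and Heg1 rose. At an unadjusted p under 0.05 there were 918 genes higher in INDY KD (4.3%) and 491 lower (2.3%), 6.59% in all. The median log2 difference over all tested genes was -0.003. Without the library labelled WT KD 25 there were 4 calls (0.0187%), Slc13a5 and Ly6c2 lower, Sox9 and the gene model Gm49749 higher. Before adjustment 5.86% of genes then lay under 0.05 (3.76% higher, 2.11% lower). The count depended on the other WT KD libraries as well: it was 4 without WT KD 7, 1 without WT KD 12 and 24 without WT KD 28, of which 22 were lower in INDY KD. Without WT KD 7 and 12 together, a choice made after the values were seen, it was 54 (0.253%), 50 higher and 4 lower. Before adjustment 9.56% of genes then lay under 0.05 (6.6% higher, 2.96% lower). It was 1 without INDY KD 15, 45 or 46, 2 without INDY KD 20 or 22, and 3 without INDY KD 21.

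Slc13a5 (ENSMUSG00000020805.14, GRCm38 chr11:72241989-72267222, minus strand) was listed at 0.824 in INDY KD 15 and at 0 in the other 5 INDY KD libraries, against 82.1, 160, 114 and 95.1 in WT KD 7, 12, 25 and 28. The groups were fully apart, as the genotype label states, and the library labelled WT KD 25 carried the transcript like the other WT KD libraries. On the log2(value + 1) scale the difference was -6.64 (SE 0.22, adjusted p = 1.15e-22), a size set by the pseudocount because 5 libraries are at 0. The same loss was present on the standard diet, with 0 in all 6 INDY SD libraries and 108 to 161 in the 4 WT SD libraries. Its transcript shares 277 aligned bases with the overlapping non-coding gene 1700051A21Rik on the opposite strand, and no other similar transcript was found.

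Heg1 encodes a single-pass membrane protein that, in mouse and zebrafish, holds endothelial junctions together with the cerebral cavernous malformation proteins. It was 1270, 1336, 1114, 1024, 1285 and 1235 in the INDY KD libraries, and 837, 802, 730 and 652 in WT KD 7, 12, 25 and 28. All INDY KD libraries lay above all WT KD libraries, and the means were 1211 ± 118 in INDY KD (SD, n = 6) and 755 ± 82.1 in WT KD (SD, n = 4). The log2 difference was 0.68 (SE 0.12, 1.6-fold, limma adjusted p = 0.0304). It was 0.67 with an adjusted p of 0.0797 without the library labelled WT KD 25, so the size held and the call was lost. The call was also lost without WT KD 12 (adjusted p = 0.0760) and without INDY KD 15, 20, 45 or 46 (0.107, 0.0853, 0.114 and 0.0916), and when the 2 groups were fitted alone (0.486). Over the 8 groups of the series INDY KD had the highest mean and WT KD the lowest, with 1098 ± 155 in WT SD (n = 4) and 920 ± 113 in INDY SD (n = 6) between them. INDY KD and WT SD overlapped, since WT SD ran from 939 to 1245. Heg1 (ENSMUSG00000075254.12) lies at GRCm38 chr16:33684370-33771576 on the plus strand. Its locus overlaps the antisense gene Gm15657, and the sources used here do not say whether the reads were counted by strand.

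Sox9, the transcription factor of astrocytes, Bergmann glia and other glial and epithelial progenitors, was 355, 368, 406, 407, 410 and 434 in INDY KD 15, 20, 21, 22, 45 and 46. In WT KD 7, 12, 25 and 28 it was 206, 231, 259 and 93.9. The groups did not overlap, and the 6 INDY KD values lay closer together than the 4 WT KD values, with 397 ± 29.5 in INDY KD and 198 ± 72.4 in WT KD (SD). With all libraries the log2 difference was 1.10 (SE 0.22) and did not pass, with a limma adjusted p of 0.0640. It passed without the library labelled WT KD 25 at 1.26 (SE 0.23, adjusted p = 0.0264), and without WT KD 28, the lowest, the difference was 0.77 (adjusted p = 0.138). In WT SD the gene ranged from 214 to 562, a range that holds all 6 INDY KD values. Sox9 (ENSMUSG00000000567.5) lies at GRCm38 chr11:112782224-112787760, on the same chromosome as Slc13a5.

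Ly6c2, a surface protein of monocytes, was called lower without the library labelled WT KD 25. It was 11.1 to 32.5 over the INDY KD libraries, and 138 in WT KD 7, 388 in WT KD 12, 8.60 in WT KD 25 and 30.0 in WT KD 28. The groups overlapped, and the libraries that set the difference were the 2 WT KD libraries with bone marrow transcripts. The log2 difference was -1.72 with all libraries (SE 0.54, adjusted p = 0.424), -2.63 without WT KD 25 (adjusted p = 0.0264) and 0.16 without WT KD 7 and 12 (adjusted p = 0.945). Its transcript matches that of its neighbour Ly6c1 at 802 of 822 bases, so the split of reads between them is uncertain. Gm49749 was 20.3 to 97.6 in INDY KD and 10.1, 0, 49.7 and 0 in WT KD 7, 12, 25 and 28, overlapping. With all libraries the log2 difference was 2.93 (SE 0.80) and did not pass (limma adjusted p = 0.308). It was called higher without WT KD 25 (log2 difference 4.06, adjusted p = 0.0264). The size of both depends on the pseudocount, because WT KD 12 and 28 were at 0. Gm49749 lies wholly within a transcript of Pcnx, so its reads cannot be told apart from those of that gene.

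**Figure D2:**
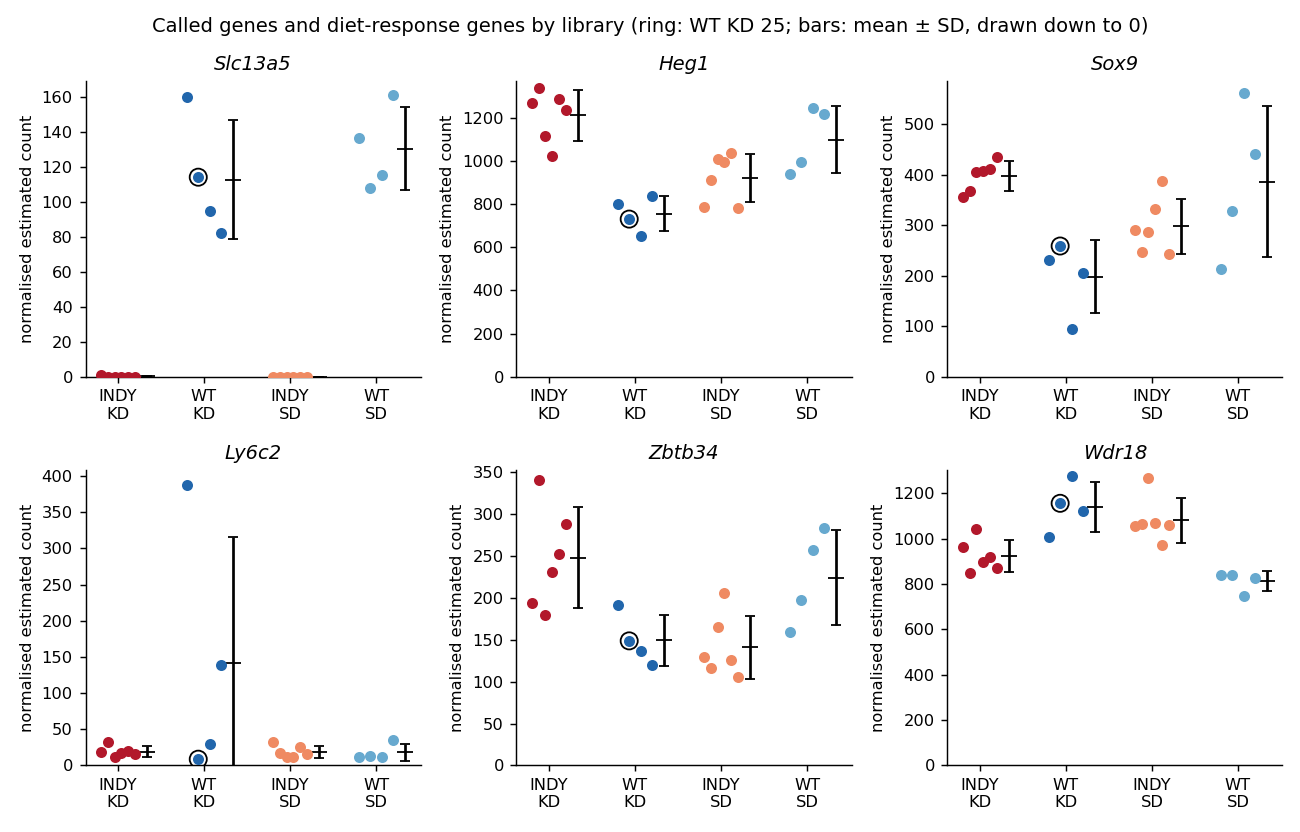
Normalised estimated counts of 6 genes in every INDY KD, WT KD, INDY SD and WT SD library, with a ring around the library labelled WT KD 25 and bars for the mean ± SD. Heg1 in the 6 INDY KD libraries lies between 1024 and 1336, above the 4 WT KD libraries, and overlaps WT SD.

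After Heg1 and Sox9, 8 further genes had the smallest p among the genes higher in INDY KD, none of them past the threshold. Tmem132e, a neuronal membrane protein, was 304 to 521 in INDY KD and 212 to 307 in WT KD, with a log2 difference of 0.58 (SE 0.11, adjusted p = 0.0640). Adgra2 and Ptprb belong to vessels. Adgra2 is the receptor GPR124, needed in mice for brain vessels to form the blood-brain barrier, and was 175 to 300 in INDY KD and 94.6 to 157 in WT KD (log2 difference 0.83, SE 0.19, adjusted p = 0.237). Ptprb, the endothelial phosphatase VE-PTP, was 1303 to 1815 in INDY KD and 954 to 1137 in WT KD (0.52, SE 0.12, adjusted p = 0.241). The groups did not overlap for either vessel gene. Dchs1, a large cadherin, was 385 to 486 in INDY KD and 281 to 311 in WT KD (0.59, SE 0.14, adjusted p = 0.241). Tbl1x, a subunit of the NCoR corepressor, was 1572 to 1692 in INDY KD and 1204 to 1469 in WT KD (0.25, SE 0.06, adjusted p = 0.241). Its lowest value, 1204, was that of WT KD 28, with 1425 to 1469 in the other WT KD libraries. Kmt2a, a histone H3 lysine 4 methyltransferase, was 2596 to 4364 in INDY KD and 1757 to 2278 in WT KD (0.73, SE 0.18, adjusted p = 0.266). Srcap, the ATPase that places the histone variant H2A.Z, was 1436 to 2074 in INDY KD and 1016 to 1367 in WT KD (0.47, SE 0.11, adjusted p = 0.266). These 4 did not overlap between groups either. All these genes were chosen by p, so the lack of overlap is not separate support. Mia, an ependymal marker in the lists used, was 11.3 to 41.1 in INDY KD and 18.7, 14.5, 3.20 and 2.14 in WT KD 7, 12, 25 and 28, so its low values sat in the 2 WT KD libraries that were low in choroid plexus RNA.

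Over all tested genes the groups did not overlap for 132 genes higher in INDY KD (0.618%) and for 54 lower (0.253%). Of the 132, 122 had an unadjusted p under 0.05. Without the library labelled WT KD 25, the genes with the next smallest p among the higher ones were Tmem245, Celsr2, Prrc2b, Cpeb3, Zbtb33 and Ubqln2, with log2 differences of 0.53 to 0.98 and adjusted p of 0.101 to 0.103. Celsr2, an atypical cadherin of planar cell polarity, was 2165 to 3745 in INDY KD, 1215, 1569 and 1279 in WT KD 7, 12 and 28, and 2780 in WT KD 25, which lay within the INDY KD range. Prrc2b, an RNA-binding protein, did not overlap even with that library in, at 5302 to 7583 in INDY KD and 3324 to 5239 in WT KD.

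Among the uncalled genes lower in INDY KD with the smallest p were genes of blood cells and of cell division. Fermt3, the integrin activator kindlin-3 of blood cells, was 45.0 to 85.8 in INDY KD and 109, 173, 88.0 and 77.2 in WT KD 7, 12, 25 and 28, with a log2 difference of -0.87 (SE 0.19, adjusted p = 0.203). Csf3r, the granulocyte colony-stimulating factor receptor, was 55.4 to 122 in INDY KD and 176, 347, 114 and 130 in WT KD 7, 12, 25 and 28. Knl1, a kinetochore protein, was 10.4 to 24.4 in INDY KD and 138, 122, 60.4 and 15.5 in the same WT KD order. In each of the 3 the highest values were those of WT KD 7 and 12. Lilr4b, Ctse, Birc5, Hist1h2bk, Ccnb2 and Arhgap30 followed with log2 differences of -2.36 to -0.75 and adjusted p of 0.253 to 0.266. Without WT KD 25 the fill was Lcn2, Mmp9, Slfn4 and Ncf4, genes of neutrophils and macrophages, at -3.40 to -1.56 and an adjusted p of 0.101 each. Without WT KD 7 and 12 the differences of these 4 were -0.26 to -0.01.

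Among genes that move and use citrate, Slc13a5 was the one that changed past the threshold. Of 18 listed genes 17 passed the filter on low values, and 1, Slc13a5, was called, while 11 of the 17 lay above 0 and 6 below, with a median log2 difference of 0.05. Acly, ATP citrate lyase, was 3712 to 7765 in INDY KD and 5100 to 6609 in WT KD (log2 difference -0.07, SE 0.17). Slc25a1, which exports citrate from mitochondria, was 363 to 727 in INDY KD and 348 to 679 in WT KD (0.12, SE 0.19). Fasn, fatty acid synthase, was 4480 to 7099 in INDY KD and 4330 to 6888 in WT KD (0.02, SE 0.13). Each of these ranges overlapped almost fully. Slc13a3, the transporter of dicarboxylates of the same family, was 397 to 642 in INDY KD and 283 to 517 in WT KD (0.33, SE 0.17, adjusted p = 0.768). Acacb, the acetyl-CoA carboxylase at the mitochondrial outer membrane whose product restrains fatty acid oxidation, was 201 to 271 in INDY KD and 188, 193, 67.4 and 160 in WT KD 7, 12, 25 and 28. The groups did not overlap for Acacb (0.71, SE 0.23, adjusted p = 0.424), and the difference was 0.36 without the library labelled WT KD 25. Slc25a11, the mitochondrial oxoglutarate carrier, was 1291 to 1734 in INDY KD and 1660 to 1880 in WT KD (-0.19, SE 0.09, adjusted p = 0.715). The other 10 tested members were Mdh1, Aco1, Me1, Acaca, Scd1, Scd2, Acss2, Elovl6, Slc25a10 and Idh1, with log2 differences of -0.17 to 0.14.

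Ketone body genes gave no call among 13 tested. Slc16a1, the monocarboxylate transporter MCT1 of vessels and glia, was 1680 to 2404 in INDY KD and 1803 to 1858 in WT KD (log2 difference 0.10, SE 0.10). Oxct1, which commits acetoacetate to oxidation, was 5359 to 7719 in INDY KD and 5730 to 7142 in WT KD (0.04, SE 0.09), and Bdh1, which oxidises beta-hydroxybutyrate, was 665 to 968 in INDY KD and 709 to 1113 in WT KD (-0.19, SE 0.12). These 3 therefore differed by less than 0.2 on the log2 scale. Slc16a3, the lactate exporter MCT4, was 20.6, 25.4, 40.3, 42.5, 31.4 and 7.51 in INDY KD, and 37.1, 58.6, 53.8 and 29.3 in WT KD (-0.78, SE 0.34, adjusted p = 0.664). Hcar1, the lactate receptor, was 16.1 to 96.2 in INDY KD and 6.31 to 46.3 in WT KD (0.93, SE 0.48, adjusted p = 0.779). Bdh2, Slc16a7, Bsg, Acat1, Aacs and Slc16a6 had differences of -0.08 to 0.38.

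**Figure D3:**
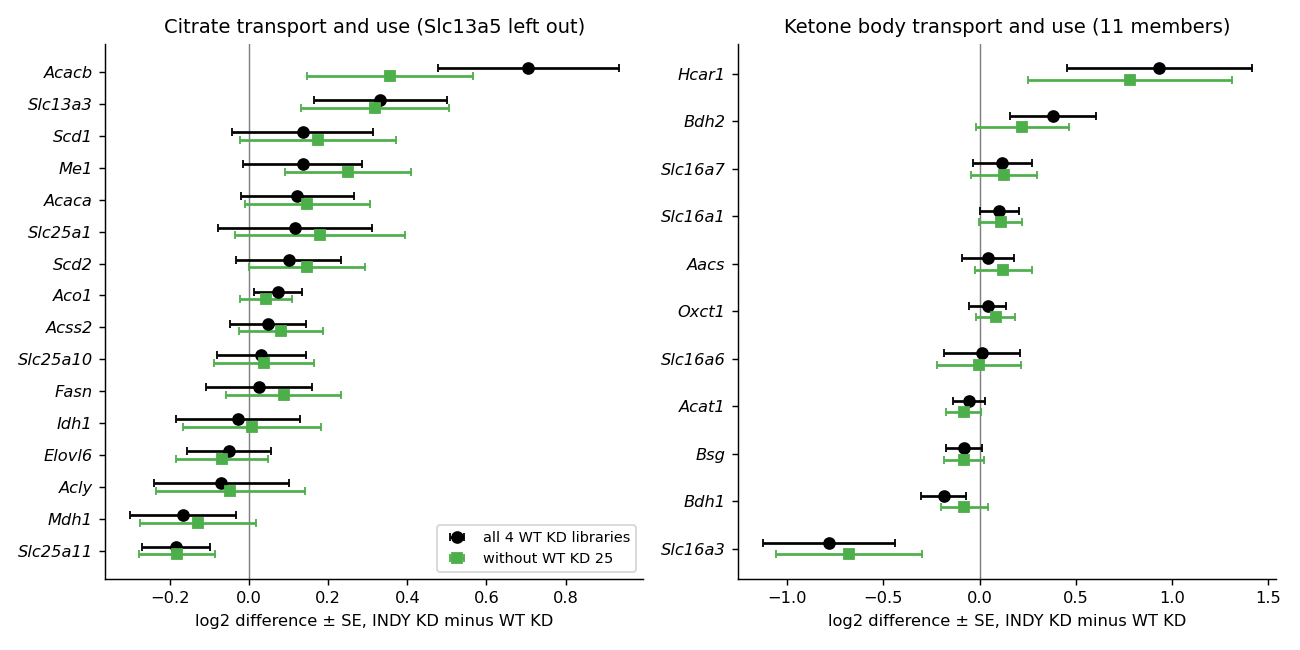
Log2 differences ± SE of INDY KD minus WT KD for 16 tested members of the citrate list, Slc13a5 left out, and 11 of the ketone body list, with all 4 WT KD libraries and without the library labelled WT KD 25. Acacb is the member whose value moves most in the citrate list, at 0.71 with that library and 0.36 without it.

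Lists of energy metabolism had medians near 0 and no calls. Fatty acid oxidation and PPAR target genes had a median log2 difference of 0.03, with 0 of 30 at an unadjusted p under 0.05 (1 higher without the library labelled WT KD 25), and cholesterol synthesis genes -0.06 with 0 of 28. In the TCA cycle list the median was -0.09. Against 2.3% of all tested genes, 3 of 22 were lower at an unadjusted p under 0.05. Among them were Dlst of the oxoglutarate dehydrogenase complex (-0.14) and Idh3g of isocitrate dehydrogenase (-0.19). Glycolysis had a median of -0.13, with Aldoa (-0.24) and Eno1 (-0.23) the 2 of 22 lower at that p, and 0 of 22 without the library labelled WT KD 25. For these 2 that library was the highest of the 10, with 30070 for Aldoa and 12726 for Eno1.

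All 49 nuclear-encoded genes of oxidative phosphorylation lay below 0, while 49.2% of all tested genes lay above 0. Their median log2 difference was -0.13, and 1 of 49 had an unadjusted p under 0.05, against 6.59% of all tested genes. It was 0 of 49 without the library labelled WT KD 25. The 13 mitochondrially encoded mRNAs had a median of -0.21, with mt-Co1, a subunit of cytochrome oxidase, at 311375 to 453668 in INDY KD and 452386 to 541276 in WT KD (-0.25, SE 0.10, adjusted p = 0.644). The 73 ribosomal protein genes had a median of -0.13, with 70 below 0. These 3 medians were each -0.09 without the library labelled WT KD 25, and without WT KD 7 and 12 they were -0.32, -0.39 and -0.27. On the standard diet they lay on the other side of 0, at 0.23, 0.34 and 0.24 for INDY SD minus WT SD. Genes of these 3 lists have short transcripts, with median longest transcripts of 1141, 784 and 1106 nt, and 41 of 49, 13 of 13 and 63 of 73 are in the shortest 3 of 10 bins of length. Over all tested genes in these bins the medians were -0.096, -0.064 and -0.041 for INDY KD minus WT KD and 0.025, 0.046 and 0.056 for INDY SD minus WT SD, on the same sides of 0. The part of length in these 3 medians was not tested.

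Genes of chromatin, clock and stress gave no calls. Of 20 histone deacetylases and acetyltransferases, the enzymes that remove or use acetyl groups, 2 were higher at an unadjusted p under 0.05 and 0 lower: Ep300 was 1705 to 2608 in INDY KD and 1364 to 1833 in WT KD (log2 difference 0.33, SE 0.12, adjusted p = 0.536), and Kat6a had a difference of 0.48 (adjusted p = 0.660). Without the library labelled WT KD 25 the count was 4 higher and 0 lower (3.76% and 2.11% of all tested genes). In the clock list 3 of 18 were higher at that p with all libraries, and 16 lay above 0. Of all tested genes 4.3% were higher and 2.3% lower at that p with all libraries. Bhlhe41, a repressor of the clock, was 741 to 895 in INDY KD and 551 to 747 in WT KD (0.40, SE 0.15, adjusted p = 0.53), and Hlf and Nr1d1 had differences of 0.49 and 0.35. The labels give no time of day. Of 21 heat shock genes Bag3, a co-chaperone of selective autophagy, was 134 to 246 in INDY KD and 93.6 to 137 in WT KD (0.80, SE 0.22, adjusted p = 0.308), and its partner Hspb8 had a difference of 0.46. Klf4, in the list of immediate early genes, was 83.9 to 139 in INDY KD and 30.7 to 72.6 in WT KD without overlap (1.04, SE 0.28, adjusted p = 0.292). In the list of antioxidant genes Hmox1, heme oxygenase, was 49.7 to 90.7 in INDY KD and 91.1 to 105 in WT KD without overlap (-0.45, SE 0.16, adjusted p = 0.481), and Slc7a11, the cystine importer, had a difference of 0.54. The lists of PARP, sirtuin and NAD genes, ATF4 and unfolded protein response, p53 targets, interferon-stimulated genes, antigen presentation, reactive astrocytes and transcription-coupled repair had medians of -0.05 to 0.01. In them the deacylase Sirt6 had -0.31 and the p53 target Zmat3 0.46, each with an unadjusted p under 0.05. Also, 1 of 20 reactive astrocyte genes was lower at that p. Without WT KD 7 and 12 the interferon, antigen presentation and reactive astrocyte medians were 0.15, 0.10 and 0.36. In each of the last 2 lists 5 genes were then higher and 1 lower at that p (6.6% and 2.96% of all tested genes). The medians of the heat shock, immediate early, antioxidant, chromatin and clock lists were -0.04, -0.04, -0.08, 0.04 and 0.13.

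Of 18 endothelial genes tested, 13 lay above 0 and 5 below. Their log2 differences ran from -0.27 to 0.68, with a median of 0.14, and 1 was called (Heg1). At an unadjusted p under 0.05, 7 were higher and 1 lower (4.3% and 2.3% of all tested genes were). Heg1 is also among the 7, and the list was written with earlier results of these data known. Kdr, the VEGF receptor 2, was 330 to 567 in INDY KD and 257 to 383 in WT KD (log2 difference 0.39, SE 0.14, adjusted p = 0.50), and Flt1, the VEGF receptor 1, had a difference of 0.30. Slco1a4, an organic anion transporter of the blood-brain barrier, was 1178 to 1605 in INDY KD and 1063 to 1171 in WT KD (0.32, SE 0.13, adjusted p = 0.596), and its groups did not overlap. Without the library labelled WT KD 25 the median was 0.05, 5 genes were higher and 1 lower at that p (3.76% and 2.11% of all tested genes), and 0 were called. The level of the whole list was 8.75 to 9.04 in INDY KD and 8.63 to 8.81 in WT KD.

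Microglial genes lay mostly below 0, and none was called. Of 22 markers 20 were below 0, with a median of -0.20. At an unadjusted p under 0.05, 4 were lower: Adgre1, Ptprc, Tyrobp and C1qa (2.3% of all tested genes were lower). In the list of disease-associated microglia and complement 24 of 28 were below 0, and 9 were lower at that p. Cst7, cystatin F, was 15.0, 7.79, 2.93, 2.04, 8.04 and 9.72 in INDY KD, and 8.08, 18.5, 52.8 and 11.5 in WT KD 7, 12, 25 and 28 (-1.33, SE 0.43, adjusted p = 0.424). The highest value was that of the library labelled WT KD 25. Without it the medians of both lists were -0.08 and -0.15, with 2 and 3 genes lower at that p (2.11% of all tested genes were). INDY KD 20 had the lowest microglial level, 7.26 against 8.00 to 8.48 in the other 5 INDY KD libraries, and without it the medians were -0.0085 and -0.23. Itgb2, the leukocyte integrin beta chain, was 61.7 to 158 in INDY KD and 109 to 331 in WT KD (-0.76, SE 0.25, adjusted p = 0.424), with its highest value in WT KD 12, one of the libraries with marrow transcripts.

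Choroid plexus and ependymal genes lay above 0 throughout, without a call. All 22 choroid plexus genes had positive differences, with a median of 1.08 and 7 at an unadjusted p under 0.05. All 12 ependymal genes did too, with a median of 1.18 and 7 at that p. Of all tested genes 4.3% were higher at that p. Without the library labelled WT KD 25 the counts were 1 of 22 and 3 of 12 (3.76% of all tested genes), with medians of 0.74 and 0.98. Kcnj13, a potassium channel of the choroid plexus, was 147, 55.7, 217, 301, 102 and 429 in INDY KD, and 196, 174, 9.53 and 0 in WT KD 7, 12, 25 and 28 (2.80, SE 1.16, adjusted p = 0.624). Slc13a4, a sulfate transporter of the family of Slc13a5, was 202 to 928 in INDY KD and 613, 417, 103 and 19.4 in the same WT KD order (1.67, SE 0.68, adjusted p = 0.615). Ccdc153 of ciliated ependyma was 5.14 in INDY KD 20 and 32.4 to 60.6 in the other 5 INDY KD libraries, and 36.8, 7.56, 0 and 0 in WT KD. In each of these the INDY KD libraries overlapped WT KD 7, and the lowest WT KD values were those of 25 and 28. The summed value of the 22 choroid genes was 15530 to 78326 in INDY KD and 13626 to 37987 in WT KD. Up to 4 of the 22 were at 0 in WT KD, against none in INDY KD. The sum was at least 13626 even in WT KD 25 and 28, where Ttr was low. Most of it there came from other members of the list, so it is no measure of choroid plexus RNA alone. Igf2, Slc22a6, Mgp and Ogn of the meninges and vessel walls had differences of 1.39, 1.11, 0.98 and 1.29, with 4 of 19 mural and meningeal genes higher at an unadjusted p under 0.05 and 0 called. That list had a median of 0.42, and without the library labelled WT KD 25 it was 0.21 with 1 gene at that p.

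Leaving out WT KD 7 and 12 left as the comparison group the 2 WT KD libraries with little choroid plexus RNA. Of the 54 calls of that fit (0.253%), Slc13a5 (-6.57) and Heg1 (0.80, adjusted p = 0.0190) were also calls of the full fit. Mia (2.88, adjusted p = 0.000902), Ccdc170, Drc7, Cfap161, Hydin and Spag16 are genes of cilia or of ependyma, Kcnj13, Calml4, Folr1 and Slc13a4 of the choroid plexus, and Igf2, Slc22a6 and Col1a2 of the meninges. Sox9 was among them too, at 1.34 (adjusted p = 0.0234). Gm6768 was called lower there, with its WT KD values at 1041 and 0. How much of these 54 calls is due to the share of choroid plexus and meninges in the samples was not tested.

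**Figure D4:**
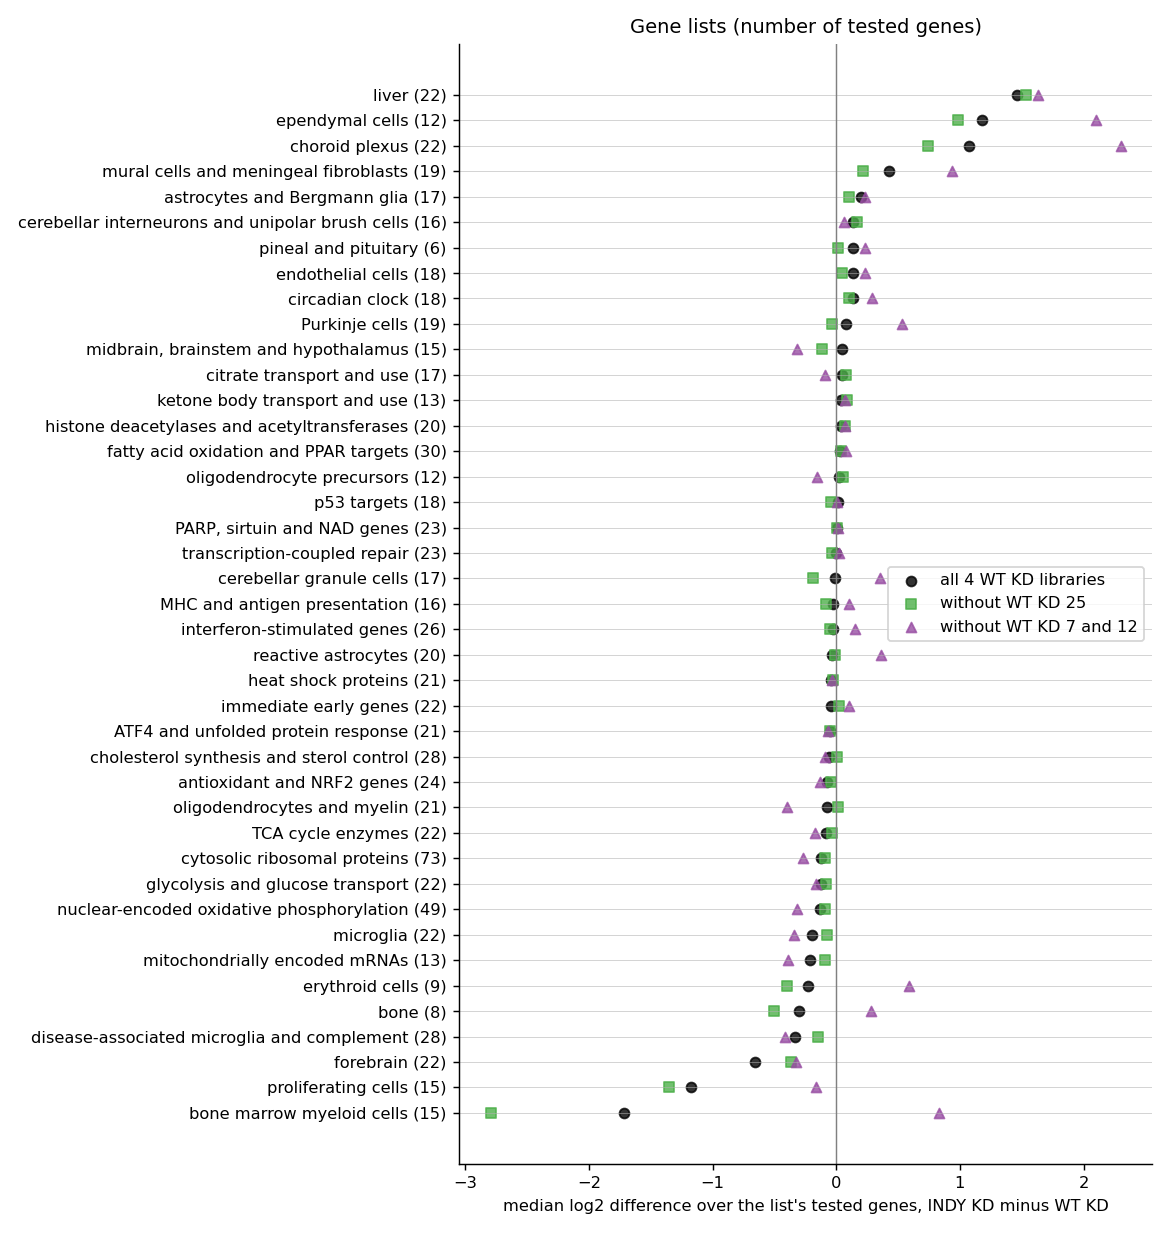
Median log2 difference, INDY KD minus WT KD, over the tested genes of each list (their number in brackets), with all 4 WT KD libraries, without the library labelled WT KD 25, and without WT KD 7 and 12. The choroid plexus median is 1.08, 0.74 and 2.30 in these fits, and the bone marrow median is -1.72, -2.79 and 0.83.

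Marrow and cell cycle genes were highest in WT KD 7 and 12. The list of marrow myeloid cells, added after the values were seen, had 15 tested genes, all below 0, with a median of -1.72. At an unadjusted p under 0.05, 9 were lower (2.3% of all tested genes were), and 0 were called with all libraries. Since the list was written with these values known, that share is not separate support. The list level was 3.47 to 4.71 in INDY KD and 7.36, 9.15, 2.81 and 2.91 in WT KD 7, 12, 25 and 28. The WT KD libraries therefore lay on both sides of INDY KD. Mki67, the proliferation marker, was 10.4 to 46.2 in INDY KD and 443, 1237, 34.7 and 8.95 in the same WT KD order. The list of proliferating cells, also added later, had a median of -1.17 with all libraries and -0.16 without WT KD 7 and 12. Col1a1, the collagen of bone and other connective tissue, was 71.7 to 386 in INDY KD and 953, 1091, 49.2 and 25.5 in WT KD. The proliferating list level was 3.62 to 4.19 in INDY KD and 5.70, 6.66, 4.46 and 3.60 in WT KD 7, 12, 25 and 28, so the library labelled WT KD 25 also lay above INDY KD. Birc5, the mitotic protein survivin, was at most 26.6 in INDY KD and was 58.6, 89.6, 35.7 and 28.2 in WT KD, without overlap. Without WT KD 7 and 12 the differences of Birc5, Knl1, Ccnb2 and Hist1h2bk were -0.87 to -0.56. The part of bone or marrow in other results was not tested.

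Neuronal lists had medians of -0.01 to 0.14, and the granule and Purkinje lists were wide between libraries. Granule cell genes had a median of -0.01, Purkinje cell genes 0.08 and interneuron genes 0.14, with no gene at an unadjusted p under 0.05 in any of the 3. Oligodendrocyte genes had -0.08 and astrocyte and Bergmann glia genes 0.20. Of the latter, Sox9 and Slc4a4 were the 2 of 17 higher at that p (4.3% of all tested genes were). Oligodendrocyte precursor genes had 0.02, erythroid genes -0.23, brainstem and midbrain genes 0.05, pineal and pituitary genes 0.14 and bone genes -0.31. The forebrain list, of genes little expressed in cerebellum, had a median difference of -0.66. Its level was 5.43, 4.89, 8.18, 7.90, 4.93 and 4.80 in INDY KD 15, 20, 21, 22, 45 and 46. In WT KD 7, 12, 25 and 28 it was 7.05, 7.30, 7.70 and 4.76. The high levels were thus those of INDY KD 21 and 22 and of WT KD 7, 12 and 25, an uneven split between the groups. The liver list was 2.57 to 8.94 in INDY KD and 2.81 to 5.39 in WT KD, with a median of 1.46. Alb, serum albumin, was 846, 1425, 3.84, 4356, 6.83 and 6.43 in INDY KD, and 2.00, 225, 47.1 and 21.9 in WT KD, so its spread lay within both groups. With forebrain and choroid plexus levels as covariates 4 genes were called, 1 higher and 3 lower, and with them and without the library labelled WT KD 25 it was 31, 9 higher and 22 lower. Heg1 then had 0.54 (adjusted p = 0.122) and 0.57 (adjusted p = 0.0611).

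The same genotype contrast on the standard diet, in separate libraries, called 1 gene of 21367 (0.00468%), Slc13a5. Heg1 did not repeat there, at 920 ± 113 in INDY SD and 1098 ± 155 in WT SD (log2 difference -0.25, SE 0.12, adjusted p = 0.344). Sox9 had -0.30 (SE 0.22) on that diet. DKO KD against CSB KD, a second contrast on the ketogenic diet that differs by Slc13a5, called 6 genes (0.0281%), with Slc13a5 at -6.87. Heg1 was 887 ± 84.3 in DKO KD and 970 ± 231 in CSB KD (SD, n = 5 each), a log2 difference of -0.10 (SE 0.12). Sox9 had -0.04 there (SE 0.21), so both differences were smaller than their SE. Neither gene was called in these other contrasts, and the positive differences of INDY KD minus WT KD did not recur.

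A test of the difference between diets, INDY KD minus WT KD set against INDY SD minus WT SD, called 3 genes (0.014%) and, without the library labelled WT KD 25, 0 genes (2165 at an unadjusted p under 0.05, 10.1%). Zbtb34, a zinc finger protein, had 1.38 (SE 0.25, adjusted p = 0.0429): it was 248 ± 60.3 in INDY KD and 149 ± 30.8 in WT KD, and 141 ± 37.5 in INDY SD and 224 ± 56.6 in WT SD. Heg1 had 0.93 (SE 0.17, adjusted p = 0.0429). Wdr18, a protein of ribosome assembly, had -0.71 (SE 0.13, adjusted p = 0.0429), with 923 ± 70.9 in INDY KD and 1141 ± 111 in WT KD, and 1081 ± 99.0 in INDY SD and 814 ± 43.5 in WT SD. In all 3 the order of the genotypes on the ketogenic diet was the reverse of that on the standard diet. This test uses the same INDY KD and WT KD libraries as the comparison itself. Without WT KD 25 the 3 values were 1.38, 0.92 and -0.70 with an adjusted p of 0.0857 each. The call count of this test ran from 0 to 9 as single libraries of the 4 groups were left out, and 13 of 20 such fits called 0 genes.

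Differences followed transcript length. With the tested genes split into 10 equal bins by longest annotated transcript, the median log2 difference was -0.096 in the shortest bin (median 723.5 nt) and 0.093 in the longest (median 7914 nt). In the longest bin 12.2% of genes were higher and 0.797% lower at an unadjusted p under 0.05, and in the shortest 2.06% and 3.75%. Without WT KD 28 the medians were -0.047 and 0.065, and for INDY SD minus WT SD they were 0.025 and -0.068, in the other order. The gap between long and short genes within a library, relative to the mean of all libraries, was 0.142, 0.177, 0.237, -0.172, 0.124 and 0.001 in the INDY KD libraries, and -0.018, 0.022, -0.074 and -0.332 in WT KD 7, 12, 25 and 28. Heg1, with a longest transcript of 8161 nt, is in the longest bin. So are Dchs1, Ptprb, Kmt2a, Srcap, Tmem245, Celsr2 and Prrc2b of the genes with the smallest p, at 10598 to 16470 nt, and the part of length in these differences was not tested.

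**Figure D5:**
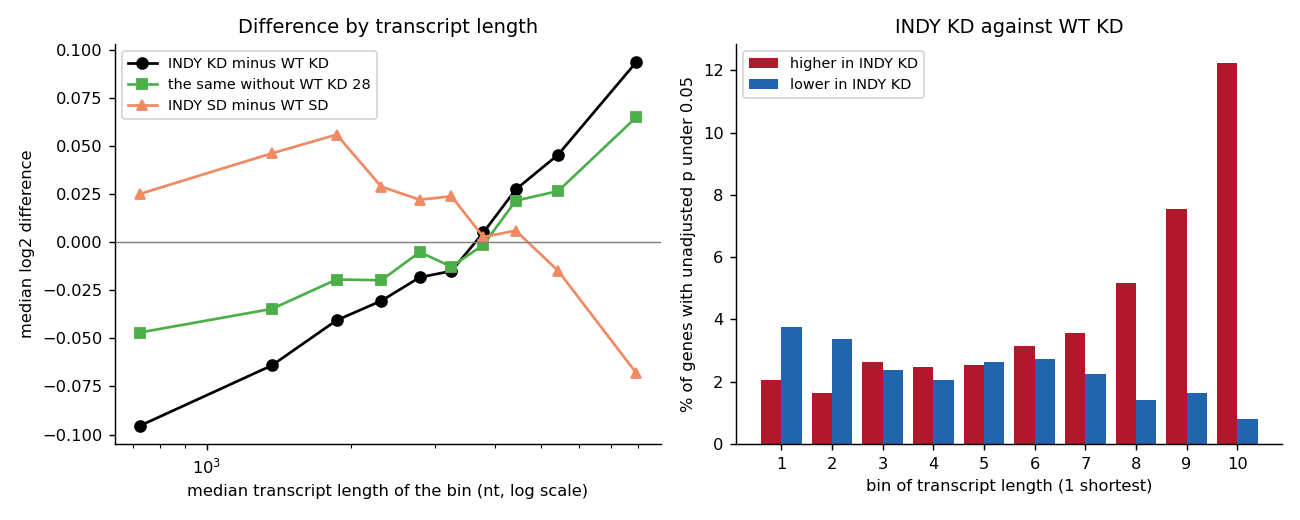
Left, the median log2 difference in each of 10 bins of transcript length, for INDY KD minus WT KD with and without WT KD 28, and for INDY SD minus WT SD. Right, the percentage of genes in each bin that were higher or lower in INDY KD at an unadjusted p under 0.05, 12.2% and 0.797% in the longest bin.

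Genes near Slc13a5 on chromosome 11 were counted apart, since genes that flank a targeted locus are inherited with it. Within 15 Mb on either side 496 genes were tested, of which 22 were higher and 19 lower at an unadjusted p under 0.05, 8.27% in all, against 8.01% of the 1423 genes on the whole of chromosome 11 and 6.49% of the 19943 genes on other chromosomes. Beside Slc13a5 itself no gene in the window was called with all libraries. Tmem132e lies in the window, 10.1 Mb from Slc13a5, with a limma adjusted p of 0.0640. It was called without WT KD 7, without WT KD 28 and without INDY KD 20.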

How the data were processed

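Trizol-chloroform RNA, freed of ribosomal RNA, went into DNBseq libraries, per the labels. The deposited unit is a signal: for every gene the authors give estimated reads after their own normalisation. The submitters' processing notes name Bowtie2, Salmon, DESeq2 and the build mm9, with no versions or order. Values are not whole: 38.0% to 57.6% of low values in the 10 libraries lay within 0.02 of a whole number of estimated read steps, so reads were not recovered, depth is unknown and no counting interval was computed.

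Symbols and positions came from GENCODE M21 on GRCm38 by gene ID (54097 of 54331 matched without the version), so positions are those of the annotation. Genes with at least 10 in at least 4 of the 40 libraries were tested, 21367 in all. limma 3.58.1 in R 4.3.3 was fitted to log2(value + 1) over 8 group means, with an intensity trend and robust variances, and p was adjusted by Benjamini-Hochberg. The fit was first tested on simulated data. The replicates are separate samples in the labels, and no 2 libraries were identical.

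Gene lists numbered 38 (22 of pathways, 16 of cell types), and 3 more were added after the values were seen. Members, lists and tests were chosen with earlier results of these data known. Named genes were the calls, the genes with the smallest p filled to 10 per direction with and without the library labelled WT KD 25, called or smallest-p members of lists, and the tested citrate and ketone genes, of which some are not reported here. Others in the text (S100a8, Mki67, Col1a1, Alb, Hydin and the further calls without WT KD 7 and 12) were chosen after their values were seen. Similar transcripts were sought with minimap2 2.31-r1302, and plots used matplotlib 3.10.9 (Python 3.11.15). Alternatives were other pseudocounts, filters, scalings, fits, covariates and left-out libraries.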

Additional observations from a re-analysis of the deposited data

Results flagged for a closer look

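Dixon's ratio was taken on log2(value + 1) within INDY KD and within WT KD for 272 sets of values. In 20 of the 272 sets it set 1 library apart from its group. The limit used lets 1 in 20 sets pass by chance. That rate is no measure here, since many genes were chosen by their values and the sets share libraries. In INDY KD 20 the ependymal list level was 3.62 (5.46 to 5.61 in the other 5 INDY KD libraries) and the brainstem, midbrain and hypothalamus level was 3.14 (6.02 to 7.36). The same library was lowest for Mia (11.3), Ccdc153 (5.14), Tmem212 (3.35), Tyrobp (123), Ptprc (96.4), mt-Co1 (311375) and the glycolysis level (11.98), and highest for the histone deacetylase and acetyltransferase level (10.16). INDY KD 15 held the 1 Slc13a5 value above 0 in its group (0.824), the lowest Knl1 (10.4) and the highest Mmp9 (71.8). INDY KD 22 had a pineal and pituitary level of 4.93, against 3.00 to 3.57 in the other INDY KD libraries.

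In WT KD the library labelled 25 stood apart in Gm6768 (1041, others 0), Aldoa (30070), Eno1 (12726) and the glycolysis level (12.39). WT KD 28 was the lowest for Tbl1x (1204) and the highest for Dlst (2887).

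The INDY against WT difference differed between diets for Zbtb34 (1.38), Heg1 (0.934) and Wdr18 (-0.711) on the log2 scale, by the limma test of that difference. Without the library labelled WT KD 25 none of the 3 passed.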

How the results depend on the processing

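Slc13a5 passed in all 22 alternatives of its comparison. Heg1 stayed higher in INDY KD in all 22 and passed in 11, with an adjusted p of 0.00849 to 0.599. Sox9 stayed higher in all 22 and passed in 4 (0.00849 to 0.924).

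For INDY KD against WT KD the count of 2 calls was 5 with no filter on low values, 1 with the compared groups fitted alone (with or without WT KD replicate 25), 1 with a constant prior, 4 with forebrain and choroid plexus covariates and 31 with these and without WT KD replicate 25. It was 29 with bone marrow, liver and erythroid covariates and 54 without WT KD 7 and 12, both chosen after seeing the data. Leaving out each library in turn gave 1 to 24. Listed genes called numbered 2, then 1, 1, 1, 13, 8 and 12 with the compared groups alone, these without replicate 25, a constant prior, the forebrain and choroid covariates without replicate 25, the marrow covariates, and without WT KD 7 and 12, and 1 to 6 with each library left out.

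The diet response count of 3 was 0 with no filter, a constant prior, the compared groups alone (with or without replicate 25) or forebrain and choroid covariates, 1 with these and without replicate 25, 21 with marrow covariates, 41 without WT KD 7 and 12, and 0 to 9 with each library left out. INDY SD against WT SD had 1 call, and 2 with no filter or with its groups alone. DKO KD against CSB KD had 6, and 3 at a pseudocount of 0.5 or with no filter, and 1 to 6 with each library left out. The cause of these changes was not tested.

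Of 41 list medians, 26 changed sign in at least 1 alternative, 18 of them with a single library left out, and 15 kept their sign in all 22. The range was -0.34 to 0.05 for microglia, -0.02 to 2.30 for choroid plexus, -0.33 to 2.10 for liver, -0.60 to 0.59 for erythroid, -0.32 to 0.35 for granule, -0.23 to 0.53 for Purkinje and -0.40 to 0.10 for oligodendrocyte genes. Among the named genes signs turned for 3. Ncoa4 (0.04) was -0.13 without replicate 25 in either fit, -0.048 with forebrain and choroid covariates and -0.16 with these and without replicate 25. Its range with each library left out was -0.13 to 0.13. Gm6768 was 0.029 with those covariates and without replicate 25, and Ly6c2 was 0.16 without WT KD 7 and 12. No paired analysis was possible because no library number occurs in 2 groups. With depth unknown the precision of genes near the limit of 10 cannot be stated.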
